A study of Mus musculus with 30 samples.

Results

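Retinal organoids grown from mouse induced pluripotent stem cells were compared at differentiation day 32 (D32) with day 25 (D25), the last interval of a time course sampled on 10 days. The comparison uses 6 of the 30 RNA-seq samples, 3 from D32 and 3 from D25, chosen by the day in the sample title, and 3 samples of D22 serve as a second, earlier baseline. All came from 1 clone of wild-type Nrl-GFP cells, which carry a green fluorescent protein reporter driven by the rod gene Nrl and were reprogrammed from embryonic day 14.5 fibroblasts with doxycycline-inducible lentiviral Oct3/4, Sox2, Klf4 and c-Myc. Each sample is poly(A) RNA from the dissected neural retina of 12 pooled organoids kept in 20% oxygen, sequenced with strand information. D32 organoids had been moved at D26 to a medium that also held non-essential amino acids, B27 supplement without vitamin A and 2% fetal bovine serum. D25 and D22 organoids had only the earlier medium, which both days share with D32 as its base: DMEM/F12 with GlutaMAX, N2 supplement, taurine at 1 mM, 9-cis retinal at 500 nM, IGF-1 (an insulin-like growth factor) at 100 ng/ml, and antibiotics. The 7 further days in culture and the change of medium therefore cannot be told apart in any result given here. Nothing in the sources used here says that the 3 samples of a day came from separate differentiations. The p-values measure the spread between samples of the same day, pooled over all 10 days and 30 samples. That spread may be partly technical.

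In the mouse retina, progenitors leave the cell cycle in a fixed order, with ganglion cells, horizontal cells, cones and amacrine cells born early and rods, bipolar cells and Müller glia born late. After their last division rods and cones build outer segments and the phototransduction cascade, and bipolar cells build the receptors through which they read the photoreceptors' glutamate. Each step is marked by genes with well known roles, so gene groups were described by role, with the number of members that passed the test and their values in single samples.

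The 6 libraries held 17715673 to 18360046 estimated counts at D32 and 19206111 to 20847655 at D25. Of 19897 genes tested, 1852 were called higher at D32 (9.31%) and 2739 lower (13.8%), together 4591 or 23.1%, with edgeR's quasi-likelihood test and a Benjamini-Hochberg adjusted p below 0.05. Levels are given in CPM, counts divided by the TMM-scaled library total and put on a common scale, and differences as log2 fold changes, D32 minus D25, with their standard error (SE). The median log2 fold change of all genes was -0.02, and 1150 of the genes called higher and 909 of those called lower differed by at least 2-fold. The 3 D32 libraries did not overlap the 3 D25 libraries in CPM for 8541 of the 19897 genes. Among the 4591 called genes this held for 4463, so a lack of overlap adds little to a call. Scaled by library size alone, 1827 genes were called higher and 1630 lower, so that the higher share of calls was 52.8% in place of 40.3%. Against D22 instead of D25 the same D32 libraries gave 6641 calls (33.4%), 2935 higher (14.8%) and 3706 lower (18.6%). Both comparisons share the D32 libraries, so they are given side by side and not as independent evidence. In a principal component analysis of the 9 libraries of D22, D25 and D32, the first component held 46.4% of the variance and set the 3 D32 libraries, at 76.0 to 82.0, apart from the D25 libraries, at -30.8 to -22.9. D25 replicate 2 stands apart in 1 technical respect: 24.1% of its reads for ribosomal protein gene Rpl3 were assigned to Rpl3 pseudogenes, against 82.2% to 85.7% in the other 5 libraries. D22 replicate 2 shared this at 31.8%, and without it D32 against D22 gave 6144 calls. Without D25 replicate 2 1391 genes were called higher and 2215 lower; each gene named below whose call ended without it is marked. The defining markers of neural retina were present on both days: Crx, Rcvrn, Pax6 and Rlbp1 averaged 1214, 358, 347 and 164 CPM at D32, and 1084, 33.6, 580 and 104 CPM at D25.

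Genes of dividing cells fell together. Every one of 25 tested mitosis genes was called lower at D32, with a median log2 fold change of -2.64, as were 24 of 25 genes of DNA replication, with a median of -1.63. Mki67, which encodes a nuclear protein of dividing cells, had 18.5, 19.0 and 23.6 CPM at D32, against 235, 165 and 259 CPM at D25. The 3 D32 libraries lay far below every D25 library, a log2 fold change of -3.43 ± 0.19 (SE, adjusted p = 1.3e-11). Cyclin B1, the partner of the mitotic kinase, fell by a similar factor: Ccnb1 had 4.04, 5.22 and 6.56 CPM at D32, against 48.1, 35.2 and 62.1 CPM at D25 (log2 fold change -3.20 ± 0.24, adjusted p = 4.7e-10). Kinetochore gene Ndc80, spindle gene Aspm and the mitotic kinase gene Melk fell by 3.24, 3.23 and 3.24 on the log2 scale. Among replication genes, the origin licensing factor Cdc6 averaged 1.14 ± 0.207 CPM at D32 and 9.25 ± 2.28 CPM at D25 (SD, n = 3 each), and the helicase subunits Mcm5 and Mcm6 fell by 2.52 and 2.87. The origin recognition gene Orc1 was the 1 member that did not pass, with 4.52 ± 3.70 CPM at D32 and 3.93 ± 1.79 CPM at D25. Melk and Aspm come from the largest falls of all genes and not from the lists. All 25 mitosis calls and 22 of the 24 replication calls were kept in each of 16 alternative settings. Mki67 averaged 220 ± 48.8 CPM at D25 and 231 ± 18.9 CPM at D22 (SD, n = 3 each).

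The regulators of G1 and of cell cycle exit split. Of 19 tested, 7 fell and 3 rose. Cyclin D1, the main D-type cyclin of retinal progenitors, averaged 58.7 ± 8.78 CPM at D32 and 321 ± 96.2 CPM at D25, with no overlap (Ccnd1 log2 fold change -2.45 ± 0.31, adjusted p = 1.6e-06). The S-phase transcription factors E2f1 and E2f2 fell by 1.96 and 1.93. Cyclin D2 and the p53-regulated inhibitor gene Cdkn1a rose. Cdkn1a had 215, 214 and 151 CPM at D32, against 68.5, 45.9 and 37.5 CPM at D25, with no overlap (log2 fold change 1.93 ± 0.35, adjusted p = 1.7e-04). Its level at D22 was 158 ± 34.4 CPM, and D32 against D22 differed by 0.29 (adjusted p = 0.54), a difference that did not pass the test. Ccnd2 rose by 1.38 ± 0.37 (adjusted p = 0.0077). E2f3 was called higher by 0.60, a call that ended without D32 replicate 2 or 3 or without D25 replicate 1 or 3 (adjusted p of 0.063, 0.055, 0.054 and 0.092). Cdkn1b, which encodes the inhibitor p27 that many retinal cells use to stop dividing, had 108 ± 6.69 CPM at D32 and 107 ± 19.4 CPM at D25 and did not pass.

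**Figure D1:**
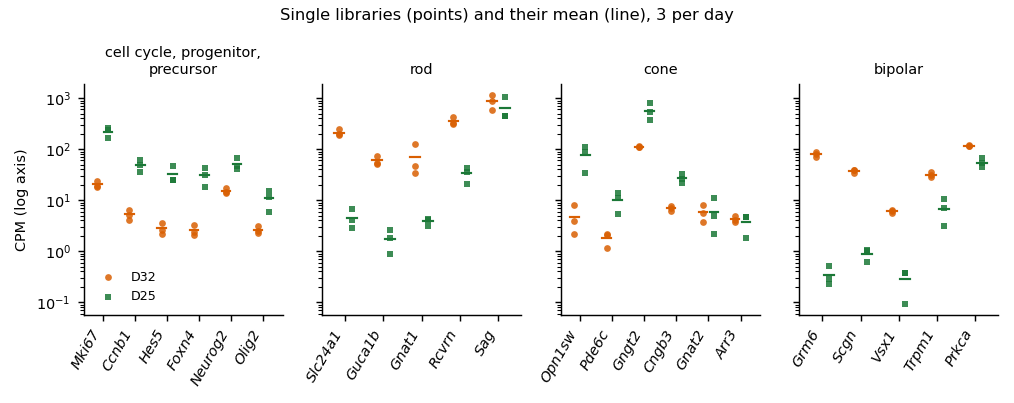
CPM in single libraries (log axis) for genes of the cell cycle, progenitors and precursors, rods, cones and bipolar cells, with D32 (circles) left of D25 (squares), 3 libraries a day, and a line at each mean. Mki67 lies at 20.4 against 220 CPM, Grm6 lies at 79.6 against 0.343 CPM, and the cone genes Gnat2 and Arr3 overlap between days.

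Genes of progenitors and of newly committed precursors also fell. Of 14 progenitor genes 6 fell and 1 rose, and of 15 precursor genes 12 fell and none was called higher, with medians of -0.90 and -1.76. The Notch effector Hes5 had 2.14, 3.65 and 2.62 CPM at D32, against 24.8, 24.7 and 46.3 CPM at D25 (log2 fold change -3.51 ± 0.46, adjusted p = 2.7e-06). Fgf15, a growth factor gene of mouse retinal progenitors, fell by 3.18 ± 0.37 and its earlier means were 30.7 ± 13.2 CPM at D25 and 159 ± 39.2 CPM at D22 (SD, n = 3 each). Foxn4, which directs amacrine and horizontal cell fates, had 2.39, 2.04 and 3.21 CPM at D32, against 31.8, 18.0 and 42.9 CPM at D25 (-3.60 ± 0.31, adjusted p = 3.9e-09). Atoh7, needed for ganglion cells, was at 0, 0.190 and 0.148 CPM at D32, against 1.12, 1.70 and 2.33 CPM at D25. The Notch ligand gene Dll3 fell by 2.43 and Sfrp2, a secreted Wnt modulator of progenitors, by 2.72. The 12 precursor calls held in all 16 alternatives.

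Among the progenitor calls, those of Notch1, Six3 and Sox2, the stem cell factor gene (named after its values were seen), were lost in at least 1 alternative. Notch1, the receptor itself, was called lower by 0.95, and its adjusted p was 0.12 without D32 replicate 1 and 0.075 without D25 replicate 1. Pax6, shared by progenitors and amacrine cells, had 347 ± 5.62 CPM at D32 and 580 ± 114 CPM at D25 and did not pass (adjusted p = 0.3). It passed in the fit on the libraries of the 2 days alone.

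Of 13 transcription factors that specify photoreceptors 1 rose and 2 fell, the same share as among all genes (23.1%). Crx, the homeodomain factor of rods and cones, had 1068, 1324 and 1251 CPM at D32, against 987, 1218 and 1048 CPM at D25 (log2 fold change 0.16 ± 0.30, adjusted p = 0.75), and the ranges overlapped. Nrl, the rod-determining factor, had 705, 818 and 933 CPM at D32, against 730, 1172 and 740 CPM at D25 (-0.10 ± 0.29, adjusted p = 0.84). Its partner Nr2e3 had 376, 445 and 406 CPM at D32, against 508, 883 and 413 CPM at D25 (-0.56 ± 0.37, adjusted p = 0.31). For these genes D25 replicate 2 was the highest of the D25 libraries. For 2 factors of the early photoreceptor precursor the level fell. Prdm1 (Blimp1), which keeps photoreceptor precursors from becoming bipolar cells, had 27.4, 33.7 and 38.8 CPM at D32, against 250, 261 and 206 CPM at D25 (-2.84 ± 0.29, adjusted p = 5.3e-08). Otx2, the factor upstream of Crx, had 291, 289 and 347 CPM at D32, against 731, 669 and 656 CPM at D25 (-1.15 ± 0.16, adjusted p = 7.5e-06). Esrrb, an orphan nuclear receptor of rods that pluripotent cells also express, averaged 16.9 ± 4.97 CPM at D32 and 1.91 ± 0.784 CPM at D25 (3.14 ± 0.25, adjusted p = 1.2e-09). Of 7 pluripotency genes Esrrb and Lin28a were called higher, and Pou5f1, which defines pluripotent cells, had 5.48 ± 1.12 CPM at D32 and 6.59 ± 1.27 CPM at D25. The Lin28a call ended without D32 replicate 2 or 3 or D25 replicate 1 or 3 (adjusted p of 0.15, 0.087, 0.1 and 0.11). All 3 calls among the photoreceptor factors held in every alternative. Of the other members, Mef2c, Mef2d, Rorb, Casz1, Samd7, Samd11 and Rax, none passed, with log2 fold changes of -0.97 (Rax) to 0.82 (Mef2c).

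The light-sensing cascade of rods rose. Of 21 tested genes of rod phototransduction 16 were called higher and none lower, with a median log2 fold change of 1.45 and positive values for all 21. The sodium-calcium-potassium exchanger gene Slc24a1, which extrudes calcium from the rod outer segment, had 188, 195 and 245 CPM at D32, against 4.02, 2.81 and 6.64 CPM at D25 (5.54 ± 0.39, adjusted p = 1.5e-10). Guca1b, an activator of guanylate cyclase, had 52.2, 54.5 and 74.5 CPM at D32, against 0.888, 1.79 and 2.61 CPM at D25 (5.09 ± 0.43, adjusted p = 2.4e-09). Slc24a1 averaged 4.49 ± 1.96 CPM at D25 and 1.91 ± 0.811 CPM at D22, and Guca1b 1.76 ± 0.862 CPM at D25 and 1.25 ± 0.748 CPM at D22 (SD, n = 3 each). Rod transducin alpha, Gnat1, had 47.0, 34.1 and 129 CPM at D32, with replicate 3 well above the others, against 3.08, 4.32 and 4.18 CPM at D25 (4.18 ± 0.44, adjusted p = 9.2e-08). Recoverin, the calcium sensor of photoreceptors, followed: Rcvrn had 317, 333 and 425 CPM at D32, against 20.8, 43.7 and 36.4 CPM at D25 (3.41 ± 0.33, adjusted p = 5.2e-08).

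Other parts of the cascade rose too. The photoreceptor kinase gene Grk1, the channel subunit Cnga1, the transducin gamma subunit Gngt1 and the phosphodiesterase inhibitor Pde6g rose by 2.70, 2.73, 1.34 and 1.86. The transducin deactivation complex rose as well: its anchor Rgs9bp had 319, 260 and 390 CPM at D32, against 45.6, 40.3 and 72.3 CPM at D25, its subunit Gnb5 rose by 1.45 and Rgs9 by 0.77. The Rgs9 call ended without D32 replicate 3 (0.62, adjusted p = 0.094), D25 replicate 1 (0.57, 0.11) or D25 replicate 3 (0.59, 0.11). Gnb5 and Rgs9bp also serve bipolar cells; the cell type behind their values was not tested. The 5 members that did not pass were Pde6b (883 ± 52.8 CPM at D32 and 513 ± 156 CPM at D25), Cngb1, Sag (874 ± 289 CPM at D32 and 652 ± 344 CPM at D25), Pdc and Guca1a. Without D25 replicate 2, Pde6b passed (1.01, adjusted p = 0.044). For Cngb1 and Sag, D25 replicate 2 reached 434 and 1049 CPM, inside the range of D32, while the other D25 libraries lay at 171 to 188 and at 452 to 455 CPM. Between 12 and 19 rod genes were called higher in the 16 alternatives, and none lower. Of the 16 calls, 11 held in all of them, and those of Rgs9, Pde6a, Gucy2e and Gucy2f were among the 5 that did not. Pde6a, a catalytic phosphodiesterase subunit, had 31.1, 19.8 and 44.1 CPM at D32, against a mean of 11.9 ± 3.82 CPM at D25 (SD, n = 3). Its adjusted p was 0.11 without D32 replicate 3, 0.062 without D25 replicate 1 and 0.076 without D25 replicate 3.

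Several of these rod genes carry the core letters bound by Crx and Otx2 next to their start. Promoter windows of 300 bases (250 before the annotated start and 50 after it, RefSeq, GRCm38.p6) were at hand for 14 of the 21 rod genes and 7 of the 12 cone genes. TAATCC or its reverse complement GGATTA, searched on both strands, was found in 8 of the 14 rod windows (57.1%) and in 1 of the 7 cone windows (Gnat2), against 8.14% of all 27025 gene symbols in the table. Of the 8 rod genes with a match, Cnga1, Gnb5, Gngt1, Gucy2e and Gucy2f were called higher, while Cngb1, Sag and Guca1a did not pass. A match describes the letters only and is no evidence of binding. A stretch of 100 bases that ends at or before the start is shown for 3 genes that rose, 5′ to 3′, with the match in capitals.
Gucy2f, chrX:142196968-142197067, minus strand: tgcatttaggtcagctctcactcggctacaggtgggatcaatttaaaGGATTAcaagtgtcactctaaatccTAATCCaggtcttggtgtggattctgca
Gngt1, chr6:3993908-3994007, plus strand: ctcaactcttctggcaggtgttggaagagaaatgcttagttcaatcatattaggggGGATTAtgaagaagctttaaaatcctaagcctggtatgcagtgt
Gucy2e, chr11:69237023-69237122, minus strand: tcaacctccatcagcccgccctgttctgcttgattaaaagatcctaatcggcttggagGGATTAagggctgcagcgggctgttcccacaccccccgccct
Gucy2e and Gucy2f encode the photoreceptor guanylate cyclases that restore cGMP after light. Counted from the start, the match begins at -42 in Gucy2e and at -44 in Gngt1, and Gucy2f holds 2 matches, the first at -84. Gucy2e had 240, 324 and 309 CPM at D32, against 153, 191 and 122 CPM at D25 (0.90 ± 0.29, adjusted p = 0.023). The Gucy2e call ended without D32 replicate 2 or 3 or D25 replicate 1 or 3 (adjusted p of 0.078, 0.073, 0.066 and 0.12). Gngt1 had 406, 382 and 611 CPM at D32, against 161, 244 and 148 CPM at D25 (1.34 ± 0.28, adjusted p = 0.0011). Gucy2f was low throughout, with 1.56, 1.14 and 5.08 CPM at D32, against 0.280, 0.552 and 0.475 CPM at D25, and without D32 replicate 3 its adjusted p was 0.086.

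Part of the cone cascade fell. Of 12 tested genes of the cone list, not all of them parts of the cascade itself, 5 fell and 1 rose, with a median of -0.84. The S-opsin gene Opn1sw (chr6:29376671-29388468) had 8.13, 2.18 and 3.95 CPM at D32, against 86.7, 112 and 34.1 CPM at D25, with no overlap (-4.03 ± 0.55, adjusted p = 5.5e-06). It averaged 77.7 ± 39.9 CPM at D25 and 65.5 ± 42.2 CPM at D22 (SD, n = 3 each). The cone transducin gamma gene Gngt2 had 118, 108 and 111 CPM at D32, against 540, 789 and 371 CPM at D25 (-2.34 ± 0.36, adjusted p = 3.1e-05). The cone phosphodiesterase Pde6c had 2.14, 1.14 and 2.07 CPM at D32, against 10.9, 13.7 and 5.36 CPM at D25 (-2.48 ± 0.45, adjusted p = 1.9e-04). Ccdc136 and the channel subunit Cngb3 fell by 2.39 and 1.95. Each of these 5 calls held in all 16 alternatives. In all 5 every D25 library lay above every D32 library, and D25 replicate 3 was the lowest of D25 for 4 of them.

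Other cone genes did not pass. Cone transducin alpha, Gnat2, had 7.89, 3.75 and 5.58 CPM at D32, against 5.00, 10.8 and 2.14 CPM at D25 (-0.06 ± 0.47, adjusted p = 0.96), after 14.1 ± 6.60 CPM at D22. Cone arrestin Arr3 had 4.87, 3.75 and 4.05 CPM at D32, against 4.77, 4.65 and 1.85 CPM at D25. Cnga3 and Pde6h gave -0.84 ± 0.43 and -0.71 ± 0.67 with overlapping libraries, and Cnga3 passed without D25 replicate 3 (-1.24, adjusted p = 0.036). Gnb3, the transducin beta subunit of cones that ON bipolar cells share, had 676 ± 38.9 CPM at D32 and 630 ± 191 CPM at D25. The exchanger gene Slc24a2 was called higher, with 7.94, 8.68 and 8.39 CPM at D32, against 2.10, 4.37 and 2.09 CPM at D25. That call ended without D25 replicate 1 (1.36, adjusted p = 0.061) or D25 replicate 3 (1.36, 0.067). M-opsin, Opn1mw, was not tested, since it had 0 counts in all 6 libraries, against a floor of 3 counts over a day. Of 11 cone fate factors 3 fell (Otx2, Onecut1 and Rxrg) and none rose. Rxrg, a retinoid receptor of cones, averaged 24.3 ± 0.844 CPM at D32 and 51.8 ± 3.86 CPM at D25 (-1.09 ± 0.20, adjusted p = 2.6e-04). In whole tissue, fewer cells of a type and less RNA per cell cannot be told apart, here and for every other cell type.

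Genes of the structures that carry these cascades rose in part. Of 21 genes of the outer segment and photoreceptor cilium 10 rose and none was called lower (median 0.64), and of 20 ribbon synapse genes 9 rose and none was called lower (median 0.53). Aipl1, the chaperone of phosphodiesterase, and the ciliary gene Fam161a rose by 1.99 and 1.52. At the synapse Cacnb2, a subunit of the presynaptic calcium channel, had 131, 167 and 164 CPM at D32, against 27.1, 33.5 and 28.7 CPM at D25 (2.37 ± 0.30, adjusted p = 1.9e-06). Complexin 4 (Cplx4), the calcium sensor gene Cabp4 and the vesicular glutamate transporter Slc17a7 rose by 1.91, 2.11 and 1.63. Impg2 of the photoreceptor matrix and the vesicle priming gene Unc13b did not pass (adjusted p = 0.19 and 0.12). The calls of 6 outer segment genes and 7 synapse genes held in every alternative, and 6 outer segment genes were called higher without D32 replicate 3, D25 replicate 1 or D25 replicate 3. Against D22, 18 outer segment genes and 13 synapse genes were called higher and none lower.

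Visual cycle enzymes and retinoid carriers gave a few calls in each direction. Rdh12, a retinol dehydrogenase of photoreceptor inner segments, had 269, 259 and 331 CPM at D32, against 28.5, 39.6 and 34.3 CPM at D25 (3.07 ± 0.20, adjusted p = 5.4e-11). Dhrs3, which reduces retinal to retinol, rose by 1.87 ± 0.42 (adjusted p = 0.002). The cellular retinoic acid binding proteins fell: Crabp1 had 46.1, 38.7 and 56.9 CPM at D32, against 136, 185 and 245 CPM at D25, and Crabp2 fell by 2.21 ± 0.17. Altogether 3 of 18 genes rose and 2 fell, beside 9.31% and 13.8% of all genes, and these 5 calls held in all alternatives. The retinoid carrier of the space around outer segments, Rbp3, had 5780 ± 1112 CPM at D32 and 3985 ± 1122 CPM at D25 and did not pass (adjusted p = 0.12), but passed without D25 replicate 2 (0.78, adjusted p = 0.042).

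Genes of bipolar cells rose. Of 19 bipolar identity genes 14 rose and 1 fell, with a median of 1.49. Grm6 (chr11:50850685-50866208 in GRCm38) encodes mGluR6, the glutamate receptor with which ON bipolar cells sense photoreceptor release. It had 70.5, 81.3 and 87.0 CPM at D32, against 0.514, 0.230 and 0.285 CPM at D25 (7.83 ± 0.34, adjusted p = 4.6e-14), and 0.235 ± 0.0735 CPM at D22. The transcription factor gene Bhlhe23, needed for rod bipolar cells, had 26.9, 32.8 and 25.6 CPM at D32 and 1764 counts over the 3 libraries, against 2 counts over the 3 D25 libraries, a ratio of 915 with a 95% counting interval of 253 to 7563. The calcium-binding protein gene Scgn, a marker of cone bipolar cells, had 39.1, 34.6 and 39.2 CPM at D32, against 1.07, 1.01 and 0.617 CPM at D25 (5.37 ± 0.49, adjusted p = 9.6e-09). Vsx1, a homeobox gene of cone bipolar cells, had 6.14, 5.64 and 6.46 CPM at D32, against 0.374, 0.0920 and 0.380 CPM at D25 (4.40 ± 0.52). Gsg1, which is listed among bipolar markers, averaged 0.248 ± 0.160 CPM at D25 and rose by 5.57 ± 0.49 on the log2 scale at D32. None of these genes overlapped between days, as held for 4463 of all 4591 called genes, and the 3 D32 libraries lay within a narrow band. Lhx3 alone was called lower, at 0.162 ± 0.113 CPM at D32 and 0.593 ± 0.158 CPM at D25, and the call ended in 8 alternatives, among them without D32 replicate 2 or 3 or D25 replicate 1 or 3 (adjusted p of 0.13, 0.13, 0.08 and 0.1). Prdm8, a regulator of bipolar cells, had 19.5 ± 2.03 CPM at D32 and 19.7 ± 6.84 CPM at D25. The calls of 12 of the 15 held in every alternative.

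Around the mGluR6 receptor, ON bipolar cells hold a cascade that closes the TRPM1 channel in darkness. Of its 11 tested genes 7 rose and none was called lower (median 1.88, positive for all 11). The channel gene Trpm1 had 35.7, 30.9 and 27.9 CPM at D32, against 10.4, 3.08 and 6.93 CPM at D25 (2.21 ± 0.60, adjusted p = 0.0081). It averaged 14.5 ± 6.63 CPM at D22, the difference between D32 and D22 did not pass (adjusted p = 0.14), and without D25 replicate 2 the D25 difference was 1.86 (adjusted p = 0.053). The scaffold genes Nyx, Lrit3 and Gpr179 rose by 1.88, 1.99 and 2.26. Gpr179 averaged 53.8 ± 3.25 CPM at D32 and 11.2 ± 5.11 CPM at D25. Some parts that other neurons share did not pass. The G protein alpha subunit Gnao1 had 169, 184 and 177 CPM at D32, against 145, 157 and 159 CPM at D25, and the regulators Rgs7 and Rgs11 gave 0.05 and 0.59. The gamma subunit Gng13 gave 0.67 ± 0.43 (adjusted p = 0.29). Gnb5 and Rgs9bp, counted here as well as among the rod genes, made up 2 of the 7 calls.

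The receptors of inner retinal synapses rose in part. Of 21 tested 8 rose and 1 fell, with a median of 0.32. Gabrr1, the rho subunit of the GABA-C receptor on bipolar terminals, had 41.2, 37.3 and 38.9 CPM at D32, against 0, 0.414 and 0.142 CPM at D25 (7.66 ± 0.67, adjusted p = 4.7e-09). Its partner Gabrr2 averaged 9.70 ± 1.23 CPM at D32 and 0.888 ± 0.408 CPM at D25 (3.44 ± 0.51, adjusted p = 1.6e-05). The NMDA receptor gene Grin2a rose by 2.06 ± 0.55. The glycine receptor gene Glra1 had 66 counts at D32 and 3 counts at D25 over 3 libraries, a ratio of 22.8 with a 95% counting interval of 7.48 to 114. The nicotinic receptor gene Chrna4 was called lower by 0.65, a call that ended in 5 alternatives, among them without D32 replicate 2 or 3 and without D25 replicate 2 or 3 (adjusted p of 0.06, 0.094, 0.074 and 0.076).

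Calls among genes of the early-born neurons were mostly lower, beside 13.8% of all genes called lower and 9.31% called higher. Of 22 amacrine genes 4 fell and none was called higher. Ptf1a, the fate switch for amacrine and horizontal cells, had 0, 0.0474 and 0.197 CPM at D32, against 1.54, 1.24 and 4.41 CPM at D25 (-4.78 ± 0.71, adjusted p = 3.5e-05), and -6.37 against D22 (adjusted p = 3.8e-07). Meis2 was called lower by 0.96, a call that ended without D32 replicate 1 or 2 or D25 replicate 2 or 3 (adjusted p of 0.08, 0.082, 0.054 and 0.086). The enkephalin gene Penk fell by 1.72. Of 7 horizontal cell genes Onecut1 and Onecut2 were called lower, by 1.30 and 0.75, but 5 of the 7 had positive values (median 0.19). The summed level of these 7 genes was 222 to 231 CPM at D32 and 187 to 218 CPM at D25. The Onecut2 call ended in 6 alternatives, among them without any 1 of the 3 D32 replicates (adjusted p of 0.056 to 0.085), without D25 replicate 2 (0.054) and without D25 replicate 3 (0.068). Of 23 genes of ganglion cells and axon growth 9 fell and 1 rose. Isl2 had 0.438, 0.901 and 0.247 CPM at D32, against 2.99, 4.14 and 7.21 CPM at D25 (-3.16 ± 0.64, adjusted p = 6.6e-04). Pou4f2, which defines ganglion cells, had 0.292, 0.0949 and 0.493 CPM at D32, against 0.514, 0.736 and 2.75 CPM at D25, and without D25 replicate 3 its difference was -1.09 (adjusted p = 0.26), and its call ended without D32 replicate 2 too (adjusted p = 0.077). D25 replicate 3 was the highest D25 library for Isl2 and Pou4f2 alike, and without it 2 of the 9 falls stayed, those of Isl2 and Sox4, beside 2 genes called higher. Without D32 replicate 2, 4 genes of this list were called lower. Sox4, a factor of young neurons named after its values were seen, had 110, 146 and 118 CPM at D32, against 291, 318 and 430 CPM at D25. The surface antigen gene Thy1 was called higher, with 15.5, 11.1 and 14.2 CPM at D32, against 0.888, 2.90 and 5.55 CPM at D25. Its adjusted p was 0.05 without D25 replicate 1, just past the threshold.

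**Figure D2:**
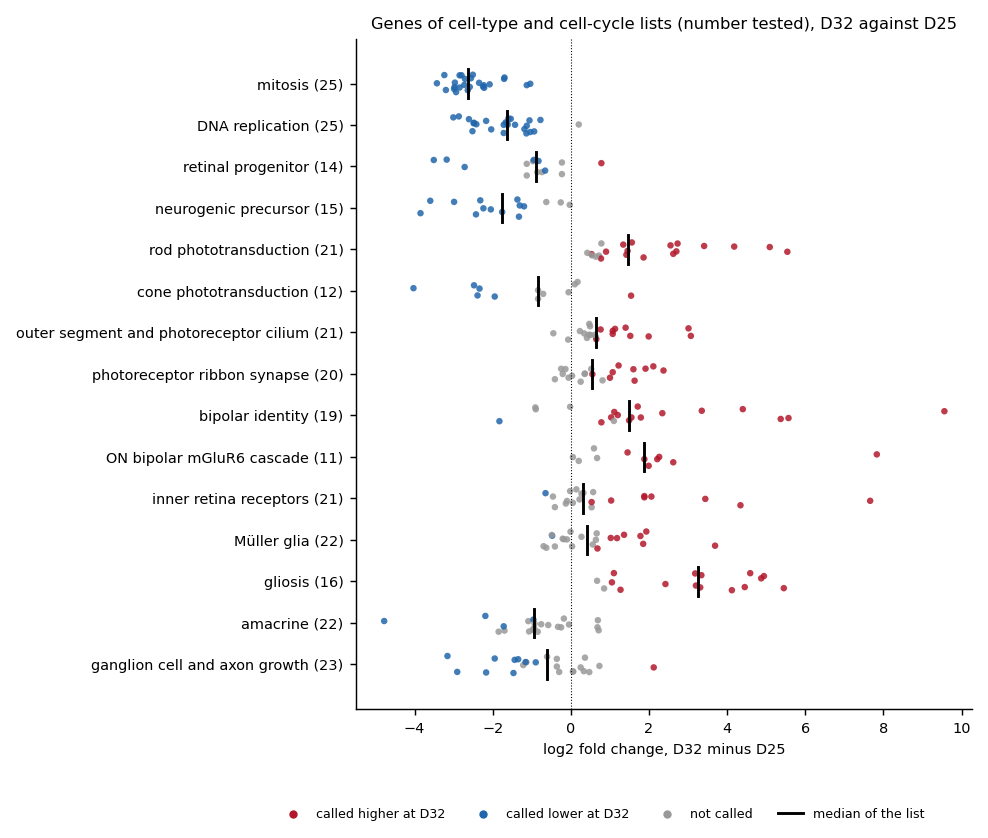
Log2 fold change, D32 minus D25, of every tested member (points) of 15 lists of cell types and cell functions, coloured by call, with the list median as a black bar. Mitosis genes lie left of 0 without exception (median -2.64), rod cascade genes right of 0 (median 1.45), and the gliosis genes to the right as well (median 3.26).

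Müller glia, the radial glia of the retina, showed a partial gain. Of 22 tested genes 8 rose and 1 fell, with a median of 0.41. The glutamate transporter gene Slc1a3 had 184, 159 and 132 CPM at D32, against 85.9, 55.4 and 68.5 CPM at D25 (1.18 ± 0.30, adjusted p = 0.0049). The water channel gene Aqp4 had 17.4 and 16.8 CPM in D32 replicates 1 and 2 and more in replicate 3, against 6.87, 4.23 and 7.36 CPM at D25 (1.85 ± 0.32), and the potassium channel gene Kcnj10, which buffers extracellular potassium, had 14.5, 12.4 and 10.5 CPM at D32, against 5.84, 5.43 and 3.32 CPM at D25 (1.36 ± 0.34). Clusterin (Clu) rose by 1.93, the protease inhibitor gene Timp3 by 1.78, carbonic anhydrase gene Car2 by 1.02 and the transporter gene Abca8a by 3.69. Car14 was called higher by 0.68, with overlapping libraries, and its call ended in 5 alternatives, among them without D32 replicate 1 or 3 and without D25 replicate 2 or 3 (adjusted p of 0.15, 0.086, 0.11 and 0.12). Rlbp1, the retinaldehyde-binding protein that defines Müller glia, had 201, 164 and 127 CPM at D32, against 130, 103 and 78.6 CPM at D25 (0.66 ± 0.38, adjusted p = 0.22). It had risen earlier, and D32 against D22 gave 1.91 (adjusted p = 4.5e-04). Glutamine synthetase went the other way: Glul had 235, 234 and 192 CPM at D32, against 334, 264 and 325 CPM at D25 (-0.48 ± 0.15, adjusted p = 0.026). That call ended without D32 replicate 3 (-0.39, 0.13), D25 replicate 1 (-0.42, 0.092) or D25 replicate 3 (-0.44, 0.085). The glial factors Sox8, Sox9, Nfia, Nfib and Nfix, the filament gene Vim, Apoe, Dkk3, Gpr37, Pdpn, Ptgds and Dbi did not pass, with log2 fold changes of -0.70 (Nfib) to 0.64 (Ptgds). Nfib passed without D25 replicate 2 (-0.97, adjusted p = 0.027).

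Genes that reactive Müller glia and astrocytes are known to express rose in nearly every case. Of 16 gliosis genes 14 rose and none was called lower, with a median of 3.26, and 12 of the 14 calls held in every alternative. Gfap, the intermediate filament of reactive glia, had 17.9, 19.5 and 32.0 CPM at D32, against 1.07, 3.13 and 3.32 CPM at D25 (3.20 ± 0.57, adjusted p = 1.6e-04). Fgf2, a growth factor gene raised in injured retina, averaged 26.9 ± 5.58 CPM at D32 and 0.872 ± 0.314 CPM at D25 (4.94 ± 0.58, adjusted p = 5.6e-07). Lipocalin 2 (Lcn2) had 8.47, 5.45 and 5.23 CPM at D32, against 0.0934, 0.276 and 0.0475 CPM at D25 (5.45 ± 0.69). The cytokine gene Lif had 3.31, 4.84 and 2.42 CPM at D32, against 0.140, 0.138 and 0.142 CPM at D25 (4.59 ± 0.71). The complement gene C4b had 67 counts at D32 and 2 counts at D25, a ratio of 34.8 with a 95% counting interval of 9.25 to 293, and D32 replicate 3 was the highest (2.27 CPM; adjusted p = 0.099 without it and 0.064 without D25 replicate 3). Ceruloplasmin (Cp) did not pass, at 190 ± 30.2 CPM at D32 and 106 ± 20.5 CPM at D25. Gfap and S100b are also astrocyte markers. Of 4 optic nerve astrocyte genes these 2 rose, with a summed level of 22.6 to 41.1 CPM at D32 and 4.39 to 7.36 CPM at D25, and S100b averaged 0.635 ± 0.344 CPM at D32. Pax2, which defines astrocytes of the optic nerve, did not pass (-0.16). The part of astrocytes in these values was not tested.

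Genes of lipid synthesis fell in part. Of 25 genes of cholesterol synthesis and uptake 12 fell and none was called higher, with a median of -0.60 and a summed level of 1715 to 1915 CPM at D32 and 2481 to 3229 CPM at D25. HMG-CoA synthase, which makes the precursor of mevalonate, had 170, 180 and 220 CPM at D32, against 370, 440 and 552 CPM at D25 (Hmgcs1 -1.26 ± 0.32, adjusted p = 0.005). Acat2, Nsdhl and Fdps, enzymes of early and late steps, fell by 1.38, 1.33 and 1.06. Cyp51, which demethylates lanosterol, had 96.0, 101 and 99.5 CPM at D32, against 159, 212 and 179 CPM at D25 (-0.89 ± 0.19, adjusted p = 9.7e-04). Squalene epoxidase (Sqle) fell by 0.81 and Hsd17b7 by 0.85. Calls of 7 of the 12 held in every alternative, and those of Mvk, Idi1, Fdft1 and the regulator gene Srebf2 were among the 5 that did not. Without D25 replicate 2 or 3, each of these 4 lost its call. The number called lower was 7 without D32 replicate 1, D25 replicate 2 or D25 replicate 3. The last enzymes of the path and several SREBP targets did not pass: Dhcr7 gave -0.10, Msmo1 -0.11, Stard4 -0.00 and Insig1 -0.33. Pmvk, a mevalonate pathway kinase, was the 1 member with a positive value, 0.22.

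The sterol regulatory element of textbook SREBP targets, TCACNCCAC or GTGGNGTGA, was searched on both strands in the RefSeq windows (GRCm38.p6) of 17 of these 25 genes. It was found in 1 of the 17 (5.88%), Hmgcs1, against 1.44% of all gene symbols in the table, and the match is shown in capitals.
Hmgcs1, chr13:119690168-119690267, plus strand: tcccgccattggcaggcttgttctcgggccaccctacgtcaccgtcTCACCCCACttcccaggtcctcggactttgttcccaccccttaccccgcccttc
In Hmgcs1 the match begins at -137 from the annotated start. Among 15 fatty acid genes 7 fell and 1 was called higher, with 4 lower without D32 replicate 1 and 3 without D25 replicate 2. The desaturase gene Scd2 had 1253, 1592 and 1452 CPM at D32, against 2557, 3403 and 2913 CPM at D25 (-1.05 ± 0.19, adjusted p = 1.8e-04), and the regulator gene Srebf1 fell by 0.93 ± 0.22. The synthase gene Fasn and the desaturase gene Scd1 were called lower by 0.82 and 0.80, and both calls ended without D25 replicate 2 (adjusted p of 0.12 and 0.11) and without D32 replicate 1 (0.11 and 0.072) or 3 (0.12 and 0.057). The Fasn call also ended without D25 replicate 3 (0.087). Elovl4, which makes the very long chains of photoreceptor membranes, was called higher, with 239, 255 and 310 CPM at D32, against 193, 223 and 191 CPM at D25, a call that ended without D32 replicate 3 (0.28, adjusted p = 0.13), D25 replicate 1 (0.36, 0.066) or D25 replicate 3 (0.36, 0.074). Of 10 sterol efflux genes 3 were called lower. Npc2, by 0.64 ± 0.14, was called in every alternative, Abcg1 lost its call in 8 and Lpcat3 in 11, and 1 gene was called lower without D32 replicate 1 or 3 or D25 replicate 1 or 2.

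Several targets of thyroid hormone rose. Thyroid hormone is a named factor in cone opsin choice in mouse retina, and of 11 tested response genes 5 rose and 1 fell, with 3 higher without D25 replicate 1. Klf9, a direct target in many tissues, had 91.0, 85.1 and 96.6 CPM at D32, against 9.53, 9.75 and 15.0 CPM at D25 (2.99 ± 0.28, adjusted p = 1.3e-08). Hr (hairless), a corepressor induced by the hormone in brain, had 57.1, 84.4 and 63.8 CPM at D32, against 3.22, 2.81 and 2.04 CPM at D25 (4.67 ± 0.41, adjusted p = 4.6e-09). Against D22 the log2 fold change of Klf9 was 3.15 and that of Hr 4.13. The activating deiodinase gene Dio2 had 8.86, 4.88 and 5.23 CPM at D32, against 1.03, 0.874 and 1.23 CPM at D25 (2.59 ± 0.47). The hormone transporter gene Slco1c1 was called higher with D32 replicate 2 at 0.379 CPM, inside the D25 range of 0.187 to 0.475 CPM, and its adjusted p was 0.062, 0.058 and 0.064 without D32 replicate 1, D32 replicate 3 or D25 replicate 1. The T3-binding protein gene Crym did not pass (0.58, adjusted p = 0.13). Klf9 also answers glucocorticoids, and the signal behind its values was not tested. Of 14 glucocorticoid response genes Klf9 alone was called higher and Fkbp5 and Tsc22d3 lower (median -0.01), beside 23.1% of all genes called. Fkbp5 had 23.3, 24.0 and 19.5 CPM at D32, against a mean of 52.1 ± 1.99 CPM at D25 (-1.23 ± 0.15, adjusted p = 1.3e-06). The Tsc22d3 call ended without any 1 of the D32 libraries (adjusted p of 0.052 to 0.14) or without D25 replicate 3 (0.31).

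Stress pathways gave smaller and mixed shifts. Of 21 ATF4 and amino acid response genes 8 rose and none was called lower. Atf3 had 40.4, 31.9 and 24.6 CPM at D32, against 4.53, 7.36 and 3.56 CPM at D25 (2.65 ± 0.42, adjusted p = 4.7e-05). The ATF4 targets Ddit3 (Chop), Trib3 and asparagine synthetase (Asns) rose by 1.17, 1.34 and 0.97. Against D22 the same list had 2 genes called higher and 3 lower with a median of -0.05, and Asns and Trib3 did not pass there (adjusted p = 0.079 and 0.27). Of 11 chaperone genes of the endoplasmic reticulum 3 rose and 1 fell, with Xbp1 higher by 0.87 ± 0.14. Of 10 NRF2 targets 5 were called higher and 1 lower, but 2 of these 6 calls held in every alternative. The number called higher was 2 without D32 replicate 2 and 3 without D25 replicate 1 or 3, and against D22 it was 2, with 1 lower and a median of 0.06. Heme oxygenase 1 (Hmox1) averaged 38.9 ± 10.8 CPM at D32 and 11.8 ± 1.02 CPM at D25 (1.72 ± 0.20, adjusted p = 4.8e-07). Of 21 hypoxia and glycolysis genes 4 were called higher and none lower, beside 9.31% and 13.8% of all genes. Their summed levels overlapped, at 12170 to 14523 CPM at D32 and 10980 to 14268 CPM at D25. Only 2 were called higher without D32 replicate 1, D32 replicate 3 or D25 replicate 2. The hexokinase gene Hk2 was called higher by 1.03 and lost its call without D32 replicate 1 or 3 or D25 replicate 1 or 2. The oxygen-sensing hydroxylase gene Egln3 had 178, 123 and 156 CPM at D32, against 40.1, 23.0 and 67.8 CPM at D25 (1.80 ± 0.42, adjusted p = 0.0024), and the oxidase gene Ero1l rose by 1.46 ± 0.33. Vegfa was called higher by 0.72, but the call ended without any 1 of the 3 D32 libraries and without D25 replicate 2 or 3 (adjusted p of 0.06 to 0.098). Lactate dehydrogenase (Ldha) had 2791 ± 403 CPM at D32 and 3596 ± 464 CPM at D25 and did not pass. The 13 transcripts of the mitochondrial genome had 2 calls, both lower, beside 13.8% of all genes called lower, and neither held in every alternative. None of the 13 had a positive value (median -0.54). Their summed level was 23589 to 38301 CPM at D32 and 39064 to 47476 CPM at D25.

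Genes of apoptosis and the p53 pathway moved both ways, and interferon genes rose in part. Of 16 apoptosis and p53 genes 7 rose and 3 fell, with a median of 0.00, and without D32 replicate 1 the number called higher was 4. Pmaip1 (Noxa), a p53 target that promotes apoptosis, had 5.36, 5.74 and 7.75 CPM at D32, against 1.40, 0.506 and 1.04 CPM at D25 (2.67 ± 0.40, adjusted p = 1.7e-05). The p53 target Ccng1 had 319, 266 and 243 CPM at D32, against 108, 90.7 and 92.0 CPM at D25 (1.51 ± 0.24), and Bmf rose by 1.24. The survival gene Bcl2l1 fell by 0.84 ± 0.15 and Casp9 by 0.66 ± 0.13. Of 13 genes of interferon response and antigen presentation 8 rose and none was called lower. The class I antigen gene H2-D1 had 152, 160 and 126 CPM at D32, against 49.5, 57.5 and 41.2 CPM at D25 (1.56 ± 0.19, adjusted p = 6.7e-07). The immunoproteasome subunits Psmb8 and Psmb9 rose by 3.84 and 2.19 to 2.09 and 1.16 CPM at D32. Of 13 chromatin and lamina genes 9 fell and none was called higher: Hmgb2, an architectural factor of dividing cells, fell by 2.22, the linker histone gene H1f0 by 1.45 and Lmnb1 by 1.37. For Hmgn2, D25 replicate 2 stood at 1162 CPM against 347 and 313 CPM in the other D25 libraries, and without it the difference was -0.96 (adjusted p = 0.17) in place of -1.84.

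Among genes that answer handling and serum quickly, 3 of 12 immediate early genes and 2 of 13 SRF and YAP targets were called higher and none lower, beside 9.31% of all genes called higher. Without D32 replicate 2 or D25 replicate 1 each list had 1 gene called higher. Without D25 replicate 2 the immediate early list had 1, and without D32 replicate 1 or D25 replicate 3 the SRF and YAP list had 1. Cyr61, a secreted YAP target, had 7.40, 10.6 and 6.96 CPM at D32, against 2.06, 1.15 and 1.38 CPM at D25 (2.44 ± 0.56, adjusted p = 0.0023). Its D22 level was 6.36 ± 2.15 CPM, and D32 against D22 did not pass (0.39, adjusted p = 0.59). D32 replicate 2 held 20.9 CPM of Junb, against 4.43 and 3.31 CPM in the other D32 libraries, and without it the Junb difference was 0.54 (adjusted p = 0.62) in place of 1.83. The Junb call also ended without D25 replicate 1, 2 or 3 (adjusted p of 0.15, 0.057 and 0.12). Against D22, 3 immediate early genes and 3 SRF and YAP targets were called lower and none higher.

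**Figure D3:**
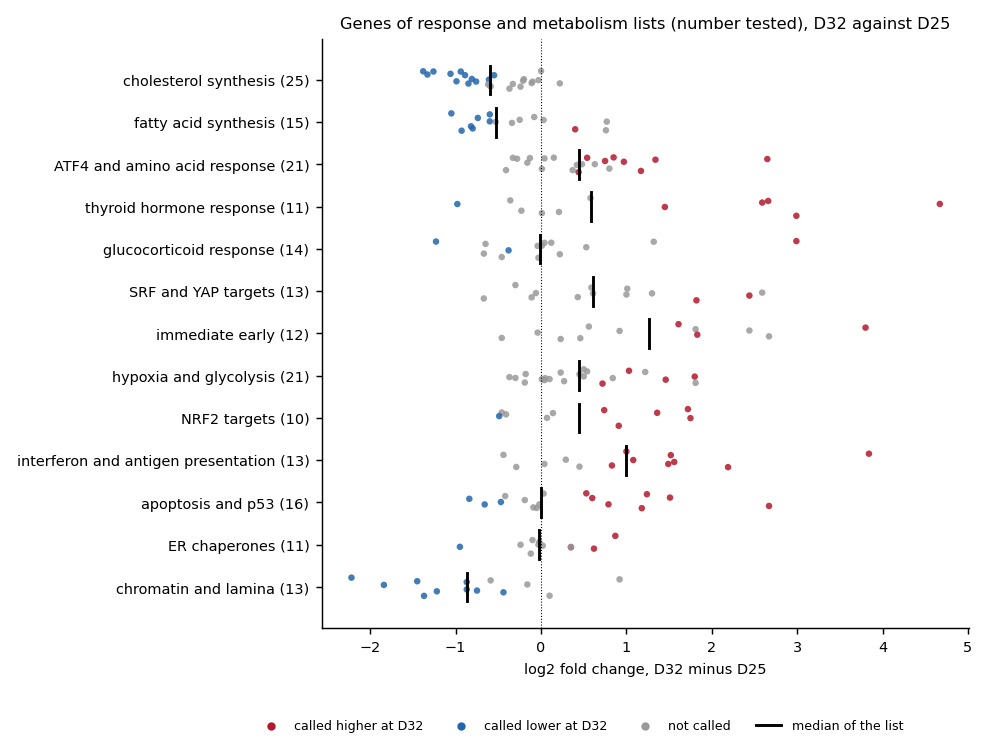
Log2 fold change, D32 minus D25, of every tested member (points) of 13 lists of metabolism and response genes, coloured by call, with the list median as a black bar. Cholesterol synthesis genes lie at or left of 0 apart from 1 (median -0.60), and Hr at 4.67 is the member farthest to the right.

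Markers of other cells that the dissection could have carried along were summed as well. Their calls stand beside 9.31% of all genes called higher and 13.8% called lower. Of 13 tested pigment epithelium genes none was called, and Rpe65, which defines that tissue, had 1 count at D32 and 0 counts at D25 over 3 libraries. Transthyretin varied between libraries of the same day: Ttr had 383, 0.949 and 327 CPM at D32 and did not pass (3.97 ± 1.47, adjusted p = 0.054), but passed without D32 replicate 2 (4.55, adjusted p = 0.02). The summed level of the list was 16.6 to 429 CPM at D32 and 33.3 to 56.3 CPM at D25. Of 11 fibroblast genes Pdgfra was called higher and Fbln1 lower, with summed levels of 104 to 157 CPM at D32 and 108 to 162 CPM at D25. The Pdgfra call ended without D32 replicate 1 or D25 replicate 2 or 3 (adjusted p of 0.1, 0.1 and 0.065). Of 6 endothelial genes Flt1 rose, with 5.80, 8.06 and 7.11 CPM at D32, against 0.934, 0.874 and 1.42 CPM at D25. Cldn5 had 0 counts at D32 and 35 at D25, at least 11.2-fold lower when 3 counts over the day are taken as the floor. Kdr averaged 246 CPM at D32 and 327 CPM at D25 and did not pass. The 6 genes summed to 216 to 275 CPM at D32 and 255 to 420 CPM at D25. Of 5 tested genes of microglia and blood C1qa alone was called, with 0 counts at D32 and 78 at D25. Ptprc averaged 0.893 ± 0.468 CPM at D32 and 0.546 ± 0.301 CPM at D25. The list summed to 0.996 to 2.19 CPM at D32 and 2.21 to 3.27 CPM at D25. Too low to test were C1qb (1 count at D32, 0 at D25) and C1qc (0 and 1). The same held for Aif1 (7 and 8) and Tyrobp (2 and 0). Lens genes summed to 0.806 to 1.36 CPM at D32 and 1.42 to 2.85 CPM at D25 with no call. Of 7 telencephalic genes Dlx1 and Dlx2 were called lower and none higher, but 4 of the 7 had positive values (median 0.50). Dlx1 averaged 1.13 ± 0.505 CPM at D32 and 3.47 ± 0.989 CPM at D25. Genes of oligodendrocytes and neural crest summed to 41.5 to 45.2 CPM at D32 and 46.6 to 66.5 CPM at D25, with Olig1 called higher and Mbp lower, and neither call held in every alternative (Olig1 had an adjusted p of 0.09 without D25 replicate 2). The part of such cells in the results was not tested.

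Among the 15 largest rises and 15 largest falls at 10 CPM or more, many belonged to the groups above. Outside them, Tnnt2, the cardiac form of troponin T, had 25.9, 16.0 and 16.4 CPM at D32, against 0.0467, 0.322 and 0.0475 CPM at D25 (7.05 ± 0.61, adjusted p = 3.9e-09). Caveolin 1 (Cav1), the coat protein of caveolae, which Müller glia express, had 44.8, 42.7 and 32.5 CPM at D32, against 0.748, 0.736 and 2.09 CPM at D25 (5.07 ± 0.56). Lad1, Kcng4 and Gramd2 rose by 4.41, 4.11 and 4.07. Gramd2 had 80.2, 62.4 and 86.1 CPM at D32, against 4.91, 3.63 and 5.08 CPM at D25. The largest fall was that of the keratin gene Krt73, with 0.146, 0.190 and 0.148 CPM at D32, against 22.5, 27.8 and 10.8 CPM at D25 (-6.92 ± 0.72, adjusted p = 3.1e-07) and 53.1 ± 23.4 CPM at D22 (SD, n = 3). Tmem92 had 408, 399 and 285 CPM at D25 and fell by 3.50 ± 0.28 on the log2 scale. The transcription factor gene Tfap2e fell by 3.45, the Notch target Heyl by 3.27, Abi3 by 3.11 and the noradrenaline transporter gene Slc6a2 by 3.08. Every one of these 30 genes had no overlap between the D32 and D25 libraries, which was part of the rule that chose them.

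**Figure D4:**
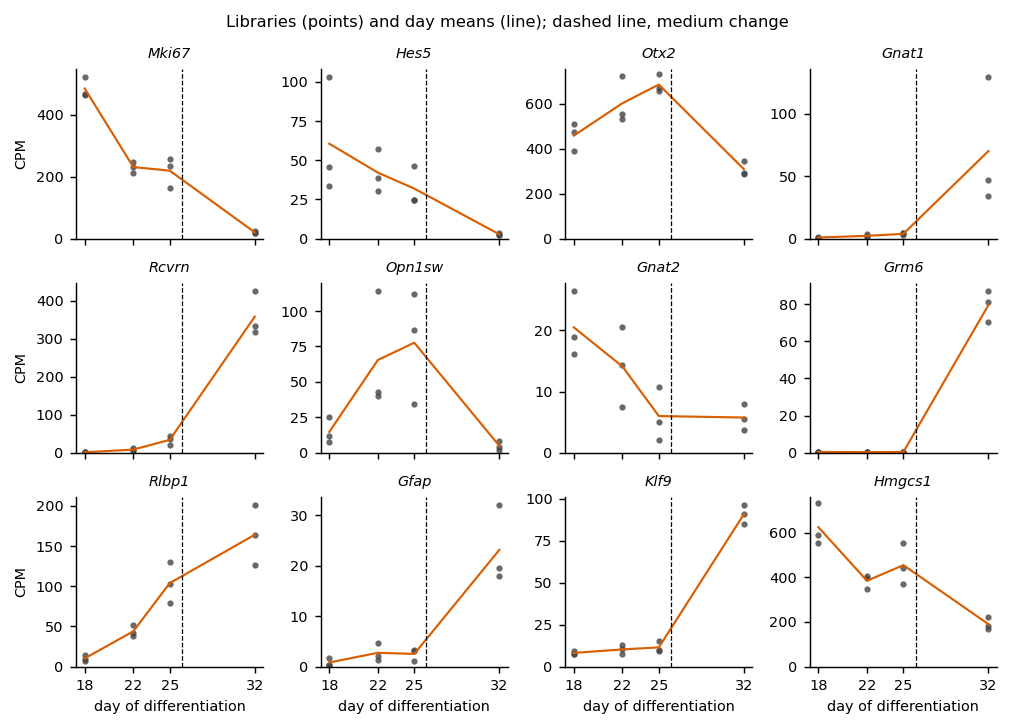
CPM of 12 genes in single libraries (points) at D18, D22, D25 and D32, 3 a day, with a line through the day means and a dashed line at the medium change at D26; each panel has its own linear axis from 0. The means of Grm6, Gnat1, Gfap and Klf9 are at most 11.4 CPM up to D25 and 23.1 to 90.9 CPM at D32, and those of Gnat1, Klf9, Rcvrn and Rlbp1 are higher on each later day.

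Over the last 4 days sampled the day means followed different courses, given here without a test. Mki67 averaged 485 CPM at D18, 231 ± 18.9 CPM at D22, 220 ± 48.8 CPM at D25 and 20.4 ± 2.84 CPM at D32 (SD, n = 3 each). Rcvrn averaged 0.825 ± 0.238 CPM at D18, 7.94 ± 4.81 CPM at D22, 33.6 ± 11.7 CPM at D25 and 358 ± 58.2 CPM at D32. Grm6 stayed at or under 0.350 CPM on average from D18 to D25 and reached 79.6 ± 8.36 CPM at D32. Opn1sw averaged 14.6 ± 9.02 CPM at D18, 65.5 ± 42.2 CPM at D22, 77.7 ± 39.9 CPM at D25 and 4.75 ± 3.06 CPM at D32, whereas Gnat2 averaged 20.5 ± 5.37, 14.1 ± 6.60, 5.97 ± 4.39 and 5.74 ± 2.08 CPM on the same days. Hr averaged 3.24, 3.89, 2.69 and 68.4 CPM on these days, and Klf9 8.13 ± 0.940 CPM at D18. No library lies between D25 and D32.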

How the data were processed

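RNA-seq of 30 libraries was processed by the authors, who trimmed reads with Trimmomatic 0.36 and quantified them with kallisto 0.42.4 on GRCm38.p4, per the submitters' processing notes. How transcript estimates became genes is not given in the sources used here. The deposited gene table holds expected counts, that is, estimated counts that are not whole; they were rounded before testing. A second deposited table holds the authors' scaled CPM, treated as a signal because its columns do not share 1 total, and it was used in the limma alternatives alone. Over both of these, 6 columns match no sample and were not used. Reads that fit several near-identical genes are shared out by such estimates, so paralogs are less certain.

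Counts were fitted with edgeR 4.0.16 (R 4.3.3), quasi-likelihood F test, 1 mean for each of 10 days over all 30 libraries, TMM factors, and filterByExpr with a minimum count of 10 and a minimum total of 15. Adjusted p-values are Benjamini-Hochberg over 19897 genes, the threshold is 0.05, and the SE is the absolute log2 fold change divided by the square root of F. The script was tested on simulated data. Counting intervals (95%) and the floor of 3 counts over a day cover counting error only. Members and lists were chosen with earlier results of these data known. Named were the 15 largest rises and falls among called genes with no overlap and at least 10 CPM on the higher day, outside predicted genes, clones and pseudogenes. Of each list, up to 4 called members with the largest change, called members against the majority and the uncalled member with the highest mean were named. Any member of the rod, cone, photoreceptor factor, mGluR6, Müller glia and cholesterol lists could be named too. Alternatives used other scalings and filters, DESeq2 1.42.0, limma 3.58.1 with pseudocounts of 1 and 0.1, fits on the days compared alone, a replicate block, a library set term (from the Rpl3 pseudogene share) and each library left out. Values of some genes that this rule takes in are not reported here.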

Additional observations from a re-analysis of the deposited data

How the results depend on the processing

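More genes were called lower than higher at D32 in 14 of 16 alternatives. Scaling by library size alone gave 1827 genes higher and 1630 lower at D32, against 1852 and 2739 with TMM factors, and moved the median log2 fold change of all genes to 0.07. Leaving out 1 library at a time gave 1336 to 1502 genes higher and 2075 to 2460 lower for D32 against D25, and 5309 to 6144 calls for D32 against D22. A fit on the libraries of the 2 days alone gave 2620 higher and 2557 lower, a higher share of 50.6%. The other alternatives gave 1588 to 2229 genes higher and 2218 to 2925 lower. With library set as a term, 1910 genes were called higher and 2793 lower, and 287 of the 4591 calls were lost. Same-numbered libraries of D32 and D25 deviated from their day means with correlations of 0.10, 0.15 and 0.02. Pairs with unlike numbers gave -0.16 to 0.09, and D32 replicate 3 correlated best with D25 replicate 1 (0.09). These correlations are weak and cannot decide whether the numbers pair the samples. With the replicate block 1921 genes were called higher and 2775 lower, and D32 against D22 gave 6729 calls. Of 283 named genes 196 were called, and 142 of these stayed called in every alternative that tested them. The mitochondrial gene mt-Cytb, called lower at an adjusted p that rounds to 0.05, is counted here as not called. Its call ended in 14 of 16 alternatives, among them without D25 replicate 2 (-0.47, adjusted p = 0.18 by edgeR). Of the 87 not called, 59 stayed uncalled, and none of the called genes reversed. That count of 59 takes in mt-Cytb, although it was called in the remaining alternatives. The cause of each lost call was not tested.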

Other observations

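Several genes outside the lists also changed, and they were chosen after their values were seen. Mfge8, a secreted bridge for phagocytosis, had 464, 482 and 313 CPM at D32, against 89.9, 108 and 77.5 CPM at D25 (log2 fold change 2.19 ± 0.24, adjusted p = 1.6e-07 by edgeR). Selenbp1, a selenium-binding protein gene, had 242, 268 and 359 CPM at D32, against 31.6, 19.1 and 45.4 CPM at D25 (3.18 ± 0.31, adjusted p = 2.9e-08). The ligand-activated receptor gene Ahr had 54.6, 59.4 and 66.4 CPM at D32, against 8.92, 6.85 and 6.31 CPM at D25 (3.03 ± 0.33, adjusted p = 1.5e-07). The hypoxia-inducible factor gene Epas1 averaged 48.0 ± 4.28 CPM at D32 and 4.55 ± 1.48 CPM at D25 (SD, n = 3 each), a log2 fold change of 3.40 ± 0.31 (adjusted p = 1.2e-08 by edgeR). Mlc1, a membrane protein of astrocytes, had 14.9, 10.8 and 13.2 CPM at D32, against 1.07, 1.15 and 0.949 CPM at D25 (3.60 ± 0.45, adjusted p = 1.4e-06).

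Others fell. The long noncoding RNA Miat had 107, 116 and 113 CPM at D32, against 834, 698 and 765 CPM at D25 (-2.77 ± 0.32, adjusted p = 5.4e-07). Stmn1, a microtubule regulator, had 242, 191 and 255 CPM at D32, against 674, 751 and 999 CPM at D25 (-1.82 ± 0.15, adjusted p = 1.9e-09). The lipid carrier of radial glia, Fabp7, had 290, 285 and 344 CPM at D32, against 1187, 896 and 1065 CPM at D25 (-1.78 ± 0.36, adjusted p = 6.8e-04). None of these 8 genes overlapped between the days, as held for 4463 of all 4591 called genes. Against D22 their log2 fold changes were 2.35 for Mfge8, 3.73 for Selenbp1, 3.45 for Ahr, 3.22 for Epas1, 3.05 for Mlc1, -2.92 for Miat, -1.61 for Stmn1 and -1.55 for Fabp7.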
